A study of Mus musculus with 8 samples.

Results

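The expression of Pttg1 and of 9 other genes of cell proliferation was compared between the hippocampus of BTBR and B6 mice, with the question of whether the fall of Pttg1 in BTBR is shared by other mitotic genes. The 10 genes were Pttg1, Ccnb1, Ccnb2, Cdk1, Birc5, Top2a, Mki67, Mcm2, Mcm6 and Pcna. Every non-control array probe that carries one of these names was taken, which gave 16 probes for 10 of the 27373 gene names on the array. Of these, 7 probes of 7 genes were bright enough to be tested. Pttg1 was chosen by its low level in BTBR on these same arrays, so its values are given as a description without a test.

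The BTBR group held 4 male mice of the inbred strain BTBR T+ Itpr3tf/J, and the B6 group held 4 male mice of the inbred strain C57BL/6J, all 5 months old and with no drug treatment. Whole hippocampus of 1 mouse was hybridized to each single-color Agilent mouse array. One label field of the BTBR samples reads C57BL/6J for the strain background, but 3 others (title, source and genotype) give BTBR. The strains differ at many loci, so that no difference between them can be assigned to a single allele. The 8 arrays lay on 2 slides, with replicates 1 and 2 of both strains on slide 1 and replicates 3 and 4 on slide 2. Between 56.8% and 71.9% of the probes were well above background on an array, B6 replicate 1 being the lowest, and 4 arrays per strain limit the precision of every value. The 10 marker genes of hippocampus were all tested and all well above background on every array. Of these 10, 9 were lower in BTBR, with a median difference of -0.51 on the log2 scale, 0 called in limma and 2 at an unadjusted p under 0.05, which 19.2% of all tested genes had.

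Pttg1 encodes securin, which holds separase inactive until the anaphase-promoting complex (APC/C) marks it for destruction, so that sister chromatids part at anaphase. Cyclin B with its kinase Cdk1 drives entry into mitosis, Birc5 (survivin) and Top2a act on chromosomes during division, Mki67 coats mitotic chromosomes, and the MCM proteins and Pcna serve DNA replication. In the adult hippocampus few cells divide, mainly progenitors of the dentate subgranular zone and glial precursors, so that transcripts of dividing cells are diluted in whole tissue. In such bulk RNA, fewer cells of a type and less RNA per cell cannot be told apart.

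The results turn on 7 probes, each of 60 bases and placed on mm9 by the array files. The first 30 bases of each, 5′ to 3′ as deposited, are shown to identify what was read, and no part of them is in capitals. Pttg1 lies at chr11:43233801-43233860, Ccnb2 at chr9:70255671-70255730, Birc5 at chr11:117716959-117717018 and Mki67 at chr7:142881591-142881650. Mcm2 lies at chr6:88833619-88833678, Mcm6 at chr1:130228178-130228237 and Pcna at chr2:132075420-132075557. Birc5 is on the plus strand and the other 6 are on the minus strand. The position of the probes within exons was not analysed here.
Pttg1: ccgcctgtttgttacgatgcagatatttaa
Ccnb2: cctaggcactggactccgatcctgcgcttc
Birc5: gtgtggttatatgtgtttgtgctgataatt
Mki67: atactactgctactgcctgagtttaaggaa
Mcm2: cccctttagacaaagagcaacttagaagta
Mcm6: ctgtggaaattgctttcttctgttcccagc
Pcna: cactgtctcctacagtaacactcagtatgt

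Levels are given as log2 of the spot intensity after background subtraction, addition of 50 and quantile normalization, so that 1 unit is a doubling, and levels of different probes are not comparable. The Pttg1 probe, the single probe of this gene (NM_013917), read 14.74, 14.57, 14.56 and 14.61 in B6 replicates 1 to 4. In BTBR replicates 1 to 4 it read 9.65, 9.78, 9.74 and 9.22. All 4 BTBR arrays lay far under all 4 B6 arrays, and the probe was well above background on all 8, so the signal was low but still detected in BTBR. No other probe reads Pttg1, and whether the BTBR sequence matches this one was not analysed here. The B6 mean was 14.62 ± 0.09 and the BTBR mean 9.60 ± 0.26 (SD, n = 4 each). The difference of -5.02 on the log2 scale, 32.4-fold lower in BTBR, was the second lowest among 27982 tested probes. It was -4.94 on slide 1 and -5.10 on slide 2. Before normalization the background-subtracted intensity ran from 22842 to 28408 in B6 and from 489 to 892 in BTBR.

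A fall of this size was not seen at any other tested member. That says little, since Pttg1 was chosen for its fall and was second lowest among 27982 tested probes. Of the 6 tested members other than Pttg1, 1 fell in BTBR at a limma adjusted p under 0.05 (Pcna) and 0 rose, while 3 had an unadjusted p under 0.05 (Pcna, Ccnb2 and Mki67), as did 18.5% of all tested probes. The estimates split into 3 higher and 3 lower with a median of -0.004 on the log2 scale. Among all tested probes 7.61% passed this threshold, 4.3% lower and 3.31% higher in BTBR, and a count of 1 of 6 is not read as a result about these genes. The arrays of the strains did not overlap in 3 of the 6, against 14.2% of all tested probes, and those 3 did not share a direction, since Pcna was lower and Ccnb2 and Mki67 were higher in BTBR. Each of the 7 tested probes passed the brightness filter in both strains.

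**Figure D1:**
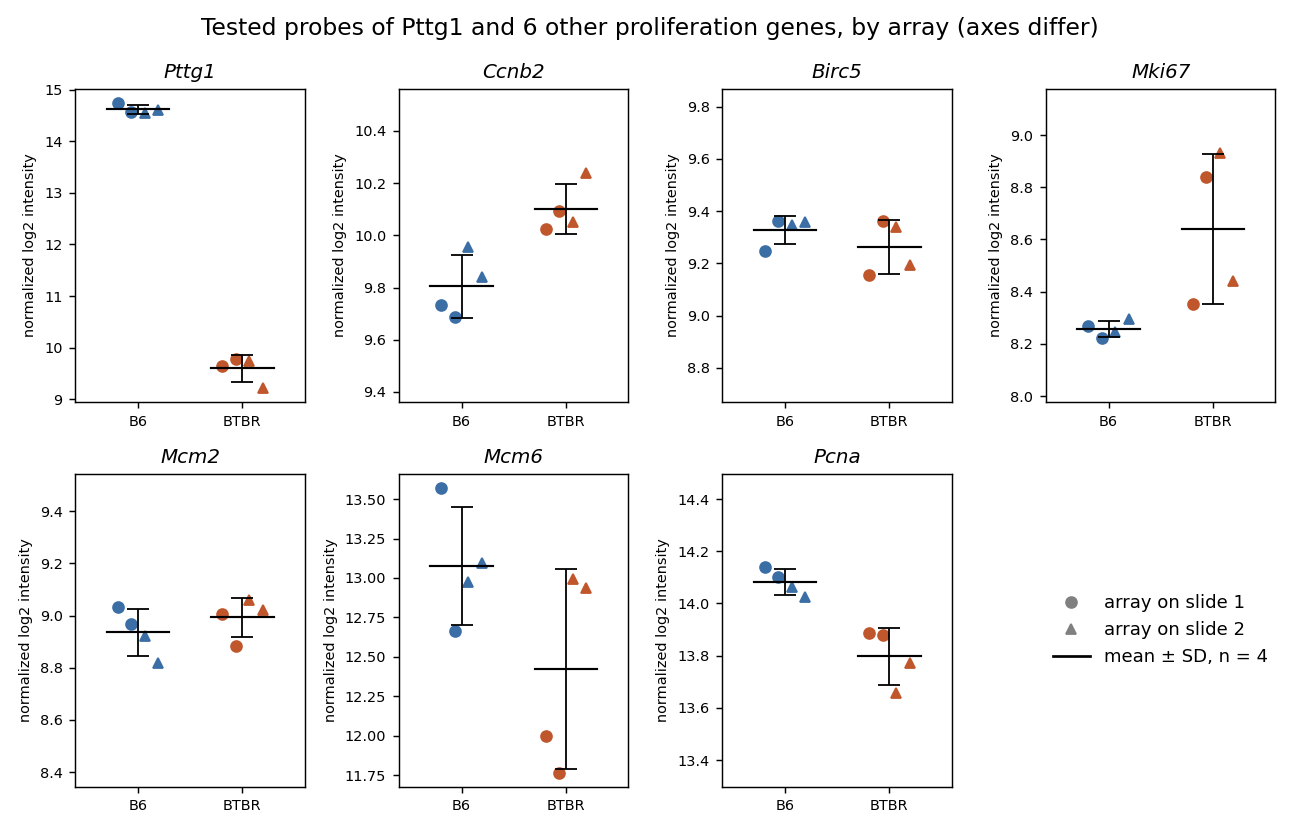
Normalized log2 intensity (vertical axes, which differ between panels) of the tested probe of each of 7 genes on 4 B6 and 4 BTBR arrays, with circles for slide 1, triangles for slide 2, and mean ± SD in black. Pttg1 falls from 14.62 to 9.60, whereas the other 6 genes differ by less than 1 unit, in both directions.

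Among the genes of mitotic entry, Ccnb2, the cyclin B2 partner of Cdk1, was the 1 that could be tested. It read 9.74, 9.69, 9.95 and 9.84 in B6 and 10.03, 10.09, 10.05 and 10.24 in BTBR. Every BTBR array was higher than every B6 array, opposite to Pttg1. The difference was 0.30 on the log2 scale (SE 0.08, 95% interval 0.11 to 0.48), with a limma adjusted p of 0.0614. A 2-sided exact permutation test of the 8 arrays gave p = 0.0286, the smallest that 4 against 4 allows. With slide as a block the adjusted p was 0.035, so that the call depends on the fit.

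Ccnb1, encoding cyclin B1, was represented by 3 probes and Cdk1, its kinase, by 2. The 3 Ccnb1 probes were well above background on 1, 0 and 0 of 8 arrays, and both Cdk1 probes on none. On the brightest Ccnb1 probe the values were 7.95, 7.81, 7.89 and 7.85 in B6 and 7.80, 7.80, 7.81 and 7.73 in BTBR. The Cdk1 probe at chr10:68800164-68800223 read 7.99, 7.60, 7.52 and 7.42 in B6 and 7.66, 7.54, 7.93 and 7.55 in BTBR. These readings overlap between the strains and lie at the background of the array, so a difference in cyclin B1 or Cdk1 mRNA was not detectable here, which does not show that there was none.

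Of the genes that act on mitotic chromosomes, Birc5 was measured on all 8 arrays and showed overlapping strains. It read 9.25, 9.36, 9.35 and 9.36 in B6 and 9.15, 9.36, 9.34 and 9.19 in BTBR. The difference of -0.06 (SE 0.07, 95% interval -0.22 to 0.09) had a limma adjusted p of 0.703 and a 2-sided exact permutation p of 0.257. The difference of the Pttg1 probe, which was chosen for its fall, is no yardstick for that interval. Top2a, encoding topoisomerase II alpha, had 3 probes, which were well above background on 1, 0 and 0 arrays. Its probe at chr11:98857244-98858058 read 7.62, 7.52, 7.97 and 7.71 in B6 and 7.71, 7.72, 7.36 and 7.63 in BTBR, with no separation of the strains.

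Mki67, encoding the proliferation marker Ki-67, had a probe above background on 3 B6 and 4 BTBR arrays. It read 8.27, 8.22, 8.25 and 8.29 in B6 and 8.35, 8.84, 8.93 and 8.44 in BTBR. The B6 arrays lay close together, the BTBR arrays spread widely, and all 4 BTBR arrays were higher. The difference was 0.38 (SE 0.13, 95% interval 0.09 to 0.68), with a limma adjusted p of 0.134 and a 2-sided exact permutation p of 0.0286. From the processed signal of the scanner software the difference was 0.86, at the same adjusted p. The other Mki67 probe, well above background on 1 array only, read 7.72, 7.81, 7.77 and 7.69 in B6 and 7.78, 7.92, 8.04 and 7.89 in BTBR. Its difference of 0.16 had the same sign, with overlapping arrays and no test.

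**Figure D2:**
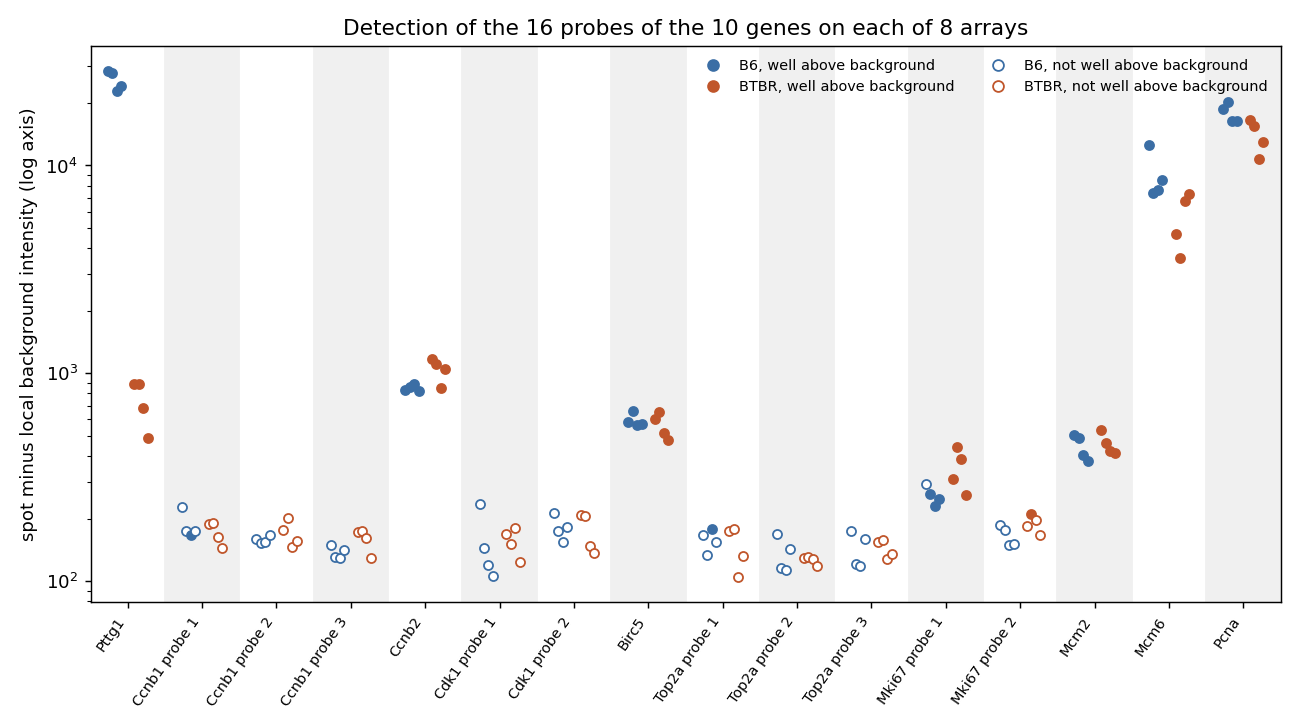
Intensity after subtraction of the local background (vertical axis, log scale, array units, before normalization) for the 16 probes of the 10 genes (horizontal axis) on each of 8 arrays, B6 in blue and BTBR in orange. Filled points are well above background. All Pttg1 points are filled, while 6 probes, among them both of Cdk1, have none, and values of different probes are not comparable.

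The 9 probes that were too dim to test, of Ccnb1, Cdk1, Top2a and Mki67, had normalized levels from 7.28 to 8.04. Their differences ran from -0.10 to 0.16, with 5 higher and 4 lower in BTBR. When the brightness filter was dropped, none of the 9 passed the limma test, and the smallest adjusted p values were 0.324 for Mki67 and 0.339 for a Ccnb1 probe. The strains overlapped at each of the 9 probes.

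The replication genes gave the 1 call. Pcna, the sliding clamp of DNA polymerase, which also serves DNA repair in cells that do not divide, was read by 10 spots of 1 probe on each array. The medians of the spots were 14.14, 14.10, 14.06 and 14.02 in B6 and 13.89, 13.88, 13.66 and 13.77 in BTBR. Every BTBR array was lower than every B6 array. The means were 14.08 ± 0.05 (SD, n = 4) and 13.80 ± 0.11 (SD, n = 4), a difference of -0.28 (SE 0.07, 95% interval -0.44 to -0.13) or 1.22-fold lower in BTBR. The limma adjusted p was 0.0422 and the 2-sided exact permutation p was 0.0286. The spots of 1 array had an SD of 0.18 to 0.24.

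The Pcna call stood close to the threshold. It was lost when any of 7 of the 8 arrays was left out (BTBR replicate 1 being the exception), with adjusted p values from 0.0485 to 0.12 over the 8 fits, while the difference stayed between -0.31 and -0.24. On slide 1 the difference was -0.24 and on slide 2 it was -0.33, with adjusted p values of 0.128 and 0.0968.

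Mcm2 and Mcm6 encode subunits of the replicative helicase. Mcm2 read 9.03, 8.97, 8.92 and 8.82 in B6 and 9.01, 8.88, 9.06 and 9.02 in BTBR, with overlapping strains. Its difference was 0.06 (SE 0.07, 95% interval -0.10 to 0.22), with a limma adjusted p of 0.739 and a 2-sided exact permutation p of 0.371.

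Mcm6 read 13.57, 12.67, 12.98 and 13.09 in B6 and 12.002, 11.77, 12.99 and 12.94 in BTBR. BTBR replicates 1 and 2 were low and BTBR replicates 3 and 4 lay within the range of B6. The difference was -0.65 (SE 0.31, 95% interval -1.35 to 0.04), with a limma adjusted p of 0.307 and a 2-sided exact permutation p of 0.171. It was -1.23 on slide 1 (adjusted p = 0.0325) and -0.07 on slide 2 (adjusted p = 0.966). In limma the slide by strain interaction had an adjusted p of 0.463 (0.0157 before adjustment over all probes), and the part of the slide in the Mcm6 values was not tested further.

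**Figure D3:**
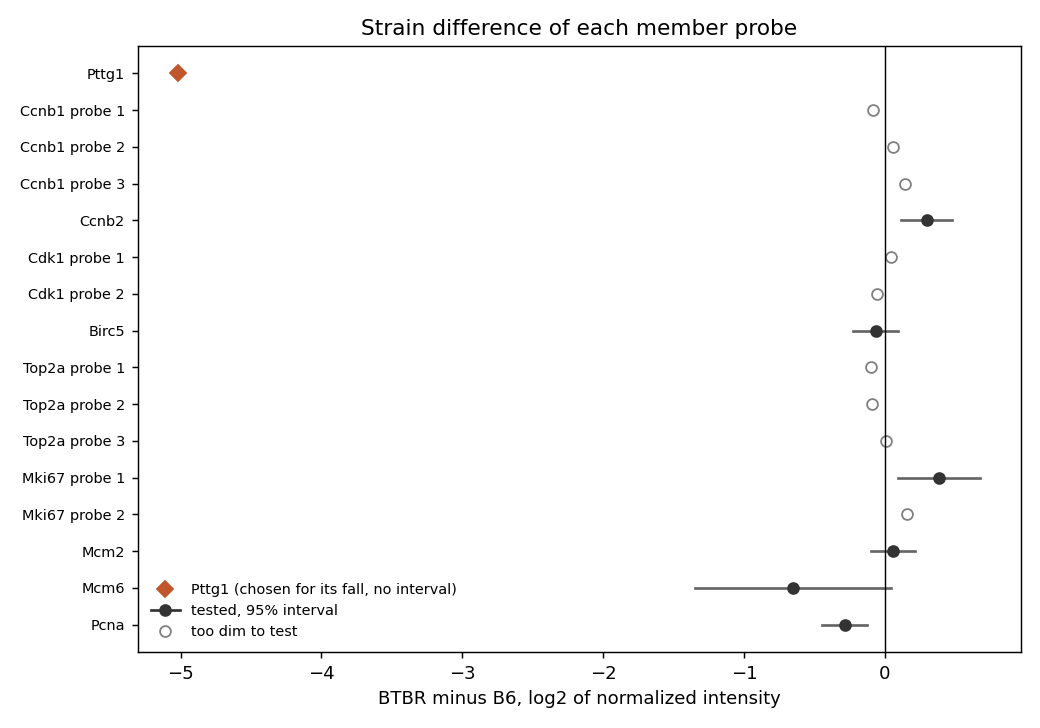
Difference between BTBR and B6 in log2 of normalized intensity (horizontal axis) for each of the 16 probes, with 95% intervals from limma for the 6 tested members other than Pttg1, open circles for probes too dim to test, and a diamond for Pttg1, which was chosen for its fall. Pttg1 stands at -5.02 and the lowest end of any interval, that of Mcm6, is -1.35.

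The members were also read against 3 wider lists, in which a gene counts by its brightest tested probe and the 10 members are left out. Over all 18399 tested genes 4.33% were lower and 3.49% higher in BTBR, with a median difference of 0.01. Of 47 tested genes of G2 and mitosis (of 70 on the array), 3 fell and 2 rose, with a median difference of 0.03. Of the 70 on the array, 9 were well above background at no probe on any array. Plk1, a kinase that acts throughout mitosis, was higher in BTBR by 0.74 (SE 0.09, adjusted p = 7.83e-04), from 9.24 ± 0.09 to 9.98 ± 0.15 (SD, n = 4). Ccna2, encoding cyclin A2, was higher by 0.35 (adjusted p = 0.0211), a call that was lost without any 1 of 5 arrays. From the processed signal the difference of Ccna2 was 0.62.

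The 3 that fell were Kif22, Spc24 and Bub1b. Kif22, a motor of chromosome arms, fell by 0.72 (adjusted p = 0.00241), and Spc24, a subunit of the Ndc80 complex at kinetochores, fell by 0.58 (adjusted p = 8.47e-04), or by 1.18 from the processed signal. Bub1b, encoding a checkpoint protein that restrains the APC/C, was well above background on 3 B6 arrays and on no BTBR array, so that it was tested only for its B6 signal and its place in the count is no independent support. Its measured difference of -0.52 had a limma adjusted p of 0.0142, over BTBR readings that were not well above background. Against the lowest signal well above background on each array, Bub1b was at least 1.35-fold lower in BTBR, a bound given without a test. That bound holds for the normalization used here, since the measured difference of -0.52 was -0.27 in the deposited matrix and -0.39 within slide 1 (adjusted p = 0.13). In 3 of the 8 fits with 1 array left out, Bub1b no longer passed the brightness filter.

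Of 36 tested genes around securin (of 37 on the array; separase, cohesin, APC/C and spindle checkpoint), 0 fell and 0 rose in limma by their brightest probe, with a median difference of -0.01, and 3 had an unadjusted p under 0.05, against the 19.2% of all tested genes. The list leaves out Bub1b, the checkpoint gene that fell, which was counted under G2 and mitosis. Of these 36, 4 had strains that did not overlap, against 14.4% of all tested genes. With any probe counted, 1 gene passed, Ube2s, an E2 enzyme of the APC/C that was named after its value was seen, at -0.57 (adjusted p = 0.0312), and its brightest probe gave -0.60 (adjusted p = 0.082). Espl1, encoding separase, differed by -0.06 (adjusted p = 0.881) at its 1 tested probe. Cdc20, an activator of the APC/C toward securin, differed by 0.32 (adjusted p = 0.367). Fzr1, the other activator, differed by 0.09 and -0.17 at its 2 probes (adjusted p = 0.73 and 0.424). Pttg1ip, which binds securin, differed by 0.12 (adjusted p = 0.558).

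Of 62 tested genes of S phase and replication licensing (of 67 on the array), 5 fell and 5 rose, against 4.33% and 3.49% of all tested genes, with a median of -0.02. The strains did not overlap in 18 of the 62 (14.4% of all tested genes), 19 had an unadjusted p under 0.05 (19.2% of all tested genes), and 13 genes were called with any probe counted. Of the 10 called, Prim2 among those that fell and Rrm2 (named after its values were seen) among those that rose passed the brightness filter through 1 strain only. Prim2, the large subunit of primase, was well above background on 4 B6 arrays and on 1 BTBR array. It was thus tested only for its B6 signal, as Bub1b was, and its place among the 5 is no independent support. Its size is not settled either, with a difference of -2.99 here (adjusted p = 1.9e-06), -5.82 from the processed signal and -2.30 in the deposited matrix. Tyms, thymidylate synthase, fell by 0.66 (adjusted p = 0.00248) at its brightest probe and by 0.57 (adjusted p = 0.0065) at another, and differed by 0.04 (adjusted p = 0.869) at the dimmest of its 3 probes. Cdc25a, a phosphatase that activates cyclin-dependent kinases, fell by 0.62 (adjusted p = 0.00214). Mcmbp, named after its values were seen, was called only with any probe counted. A probe well above background on 4 B6 and 4 BTBR arrays differed by -2.08 (adjusted p = 1.22e-05). Its brightest probe differed by -0.17 (adjusted p = 0.202) and its other tested probes by 0.06 and -0.01, so the probes of Mcmbp disagree. Gins4, a helicase subunit, was higher in BTBR by 0.79 (adjusted p = 1.34e-04). Mcm3, a partner of Mcm2 and Mcm6 in the same ring, was higher by 1.18 (adjusted p = 8.01e-04) at 1 probe and by 0.16 (adjusted p = 0.331) at the other, so its probes disagree in size.

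**Figure D4:**
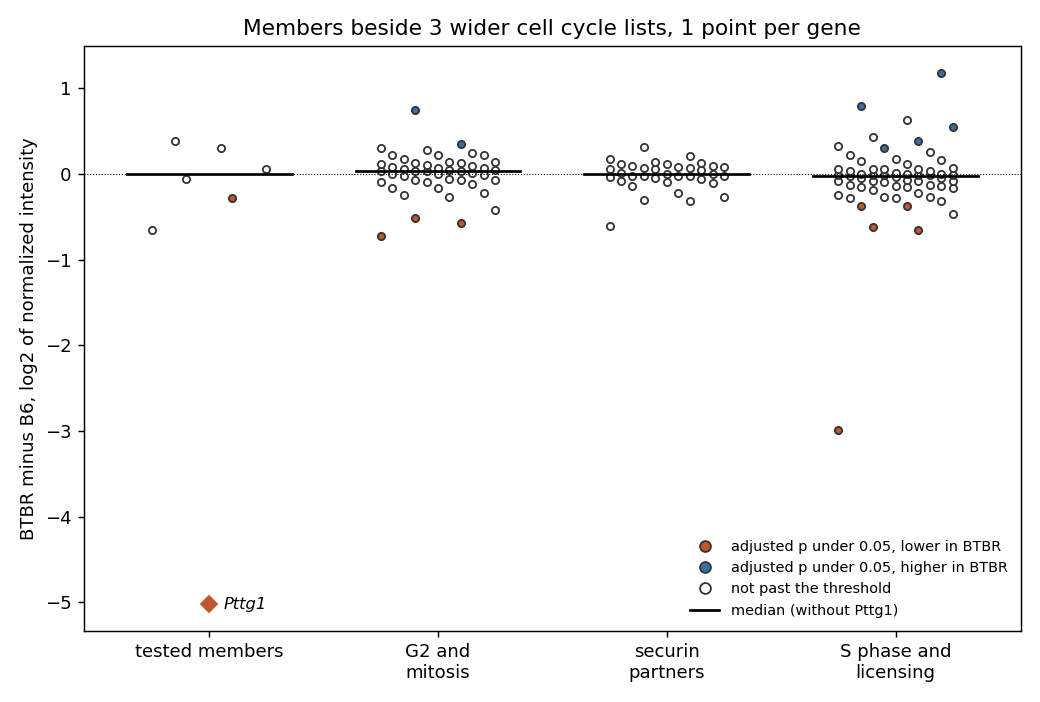
Difference between BTBR and B6 in log2 of normalized intensity (vertical axis) for the tested members and for 3 lists without the members, 1 point per gene at its brightest tested probe, with filled points at a limma adjusted p under 0.05 and a line at each median (Pttg1 not counted and drawn without a test). The medians lie between -0.02 and 0.03, and the lowest listed point is Prim2 at -2.99, whose BTBR signal was well above background on 1 array only and whose size depends on the processing. A probe of Mcmbp at -2.08 is not the brightest of its gene and is not drawn.

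Markers of dividing cells and of other cell types that the tissue could hold were read beside the members, and each list had members well above background. Of 14 tested genes of neural progenitors and newborn neurons, 1 rose and 0 fell, with a median difference of -0.003, and the 1 was Sox11, whose probes were called in both directions. Of 9 tested genes of oligodendrocyte precursors 0 passed in limma and 1 had an unadjusted p under 0.05, with 8 higher and 1 lower. Of 13 tested microglial genes 1 rose and 5 fell by their brightest probe, against 3.49% and 4.33% of all tested genes. The 1 that rose, Cx3cr1, differed by 1.41 at that probe and by -0.10 (adjusted p = 0.669) at its other, and of the 5 that fell, Fcrls differed by -1.16 and, at its other probe, by 1.09 (adjusted p = 1.43e-04), both genes being named after their values were seen. The summed microglial intensity ran from 83642 to 87611 in B6 and from 72114 to 90801 in BTBR. The 10 endothelial, 11 choroid plexus, 7 pituitary and 6 blood genes tested gave 0 calls in limma, and 0, 1, 0 and 0 of them had an unadjusted p under 0.05. Summed choroid plexus intensity ran from 18566 to 53253 in B6 and from 23350 to 100070 in BTBR. The 9 tested thalamic genes were all higher in BTBR with 0 calls in limma and 0 at an unadjusted p under 0.05, at summed intensities of 34297 to 39861 in B6 and 39185 to 139720 in BTBR. The part of these cell types in the values of Pcna, Mcm6 and the other members was not tested.

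The position of Pttg1 was a property that its choice did not use. Within 1 Mb of its probe on either side of chromosome 11, 13 probes of 8 other gene names were tested, of which 2 probes were called, against 7.61% of all tested probes. Slu7, a splicing factor and the nearest gene tested on that side, read -0.36 (adjusted p = 0.00665) at a probe 18.2 kb away and 0.26 (adjusted p = 0.0995) at its other probe, 27.6 kb away. Gabrb2, a GABA-A receptor subunit and the nearest gene tested on the other side, was higher in BTBR by 0.33 (adjusted p = 0.0175) at 1 of its 3 probes. The differences of the 13 probes ran from -0.36 to 0.49.

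The probes whose values over the 8 arrays were most like those of Pttg1 belonged to genes on none of the 3 lists. By Pearson's r, they were those of 2610044O15Rik8, Bod1l, Zfp874a, Akap6 and Pop4, with r from 0.9984 to 0.9988. All 5 were lower in BTBR, with differences of -1.13 for 2610044O15Rik8, -2.18 for Akap6 and -4.61 for Pop4. Bod1l and Zfp874a were well above background on no BTBR array and were at least 3.05-fold and at least 6.86-fold lower. Such an r mostly restates that the arrays split by strain, and it is given without a test.

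The promoters of Pttg1, of Pcna, the member that fell, and of Ccnb2, a mitotic member with every BTBR array above every B6 array, are shown because G2 and mitosis genes often carry CCAAT boxes and a cell cycle element with the letters TTTGAA. RefSeq (GRCm38.p6) holds 1 promoter for each of the 10 members, from 250 bases before to 50 after the start. The part before the start is printed in the direction of the gene, with CCAAT and TTTGAA on either strand in capitals (ATTGG and TTCAAA on the other strand). It lies at chr11:43425982-43426231 for Pttg1, chr2:132253181-132253430 for Pcna and chr9:70421555-70421804 for Ccnb2, all on the minus strand.
Pttg1: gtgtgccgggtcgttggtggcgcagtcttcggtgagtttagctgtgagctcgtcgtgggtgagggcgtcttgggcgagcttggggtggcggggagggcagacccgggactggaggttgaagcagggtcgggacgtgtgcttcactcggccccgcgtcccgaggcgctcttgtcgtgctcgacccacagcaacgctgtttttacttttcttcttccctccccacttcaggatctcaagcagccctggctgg
Pcna: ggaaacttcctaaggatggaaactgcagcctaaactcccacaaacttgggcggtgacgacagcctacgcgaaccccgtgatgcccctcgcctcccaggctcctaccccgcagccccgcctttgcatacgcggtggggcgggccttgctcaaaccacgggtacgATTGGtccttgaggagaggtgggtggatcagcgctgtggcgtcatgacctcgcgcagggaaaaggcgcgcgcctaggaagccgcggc
Ccnb2: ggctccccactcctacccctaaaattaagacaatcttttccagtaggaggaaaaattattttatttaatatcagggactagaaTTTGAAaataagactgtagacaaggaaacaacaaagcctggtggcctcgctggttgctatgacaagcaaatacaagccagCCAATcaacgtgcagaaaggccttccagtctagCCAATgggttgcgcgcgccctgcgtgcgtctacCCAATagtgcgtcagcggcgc

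Over the 300 bases of each promoter, CCAAT was found in 8 of the 10 members and in 37.4% of 32851 mouse promoters of the same length. TTTGAA was found in 5 members (Ccnb2, Cdk1, Top2a, Mki67 and Mcm2) and in 17.9% of all promoters. The Pttg1 window held neither, the Pcna window held 1 CCAAT, and the Ccnb2 window held 3 CCAAT and 2 TTTGAA, the other TTTGAA lying after the start. TTTCCCGC (GCGGGAAA on the other strand), a form of the E2F motif, was found in 0 members and 1.07% of promoters, and TTTGGCGC (GCGCCAAA), another form, in Mcm6 alone and 0.514% of promoters. No matches overlapped in a member's window. These matches describe letters in the reference strain and bear on no factor's binding.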

How the data were processed

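RNA of 1 hippocampus per array was labeled with Cy3, and the authors deposited the spot intensity values that Agilent Feature Extraction 10.7.3.1 read (per the file headers), unscaled between arrays, with flags for spots well above background. The deposited log2 matrix was made by the authors with Agi4x44PreProcess, background subtraction and quantile normalization, and served as an alternative here. Probe coordinates are those of mm9. The probe sequences and other annotation fields were deposited in the array files as well.

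From the mean intensity of each spot the median of its local background was taken off, with a floor of 0.5. After addition of 50 and log2 transformation the arrays were quantile normalized, with the median taken over spots of the same probe. Of 41174 non-control probes, 27982 were tested, those without an outlier flag (154 probes had one) and well above background on at least 75% of the arrays of a strain. Strain alone was fitted in limma 3.58.1 (R 4.3.3, data.table version 1.17.8) with Benjamini-Hochberg adjustment over all tested probes, and adjusted p under 0.05 was called. The fit was tested on simulated data. The rank product of the study permutes probes within arrays and was not used here. Promoter letters were searched and plots drawn with Python 3.11.15 and matplotlib 3.10.9.

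The members and gene lists were chosen with earlier results of these data known. Named list genes were at most the 5 called genes with the smallest p of each cell cycle list, and always Espl1, Pttg1ip, Cdc20 and Fzr1. The neighbors named were the nearest tested gene on each side and the called ones, and the genes most like Pttg1 were the 5 with the highest r. The alternatives were other background corrections, scalings, offsets and filters, the deposited matrix, limma with trend and robust options, replicate or slide as a block, each slide alone, each array left out, 1 median value per gene, and an adjusted p under 0.10. The qRT-PCR measurements and the En2 mice were not analysed here.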

Additional observations from a re-analysis of the deposited data

Results flagged for a closer look

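For Birc5, B6 replicate 1 read 9.25 on the log2 scale and stood apart from the other 3 B6 arrays, which read 9.35 to 9.36. Its gap to the nearest of them was 0.88 of the range of the B6 arrays, and chance sets 1 sample apart in this way in about 1 in 20 groups. Without that array the difference of Birc5 was -0.09 (limma adjusted p = 0.657).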

How the results depend on the processing

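The difference of Pttg1 was -5.40 with the processed signal minus its 75th percentile and between -4.83 and -5.10 under the other settings. With that processed signal Mki67 differed by 0.86, Ccna2 by 0.62, Spc24 by -1.18, Bub1b by -2.40 (-0.27 in the deposited matrix) and Prim2 by -5.82. Of the 6 tested members other than Pttg1, 1 was called, against 0 with a replicate block, 2 with slide as a block, 0 within slide 2, 2 at an adjusted p under 0.10, and 0 to 1 when 1 array was left out. The difference of Mcm2 was -0.055 within slide 1 (adjusted p = 0.738). Without the filter on dim probes 16 member probes were tested in place of 7. Of the G2 and mitosis genes 5 were called, against 2 within slide 2 and 3 to 6 with 1 array left out, the 3 being reached without B6 replicate 2 or B6 replicate 3. Of the genes around securin 0 were called, against 1 with median centring, 2 with slide as a block, 2 at an adjusted p under 0.10, and 0 to 1 with 1 array left out. Of the S phase genes 10 were called, against 5 within slide 2, 7 with the processed signal and 7 with a replicate block. That count was 12 with slide as a block, 13 with 1 median value per gene and 15 at an adjusted p under 0.10. With 1 array left out it was 7 to 10. Of the probes near Pttg1 2 were called, against 1 within slide 1, 0 within slide 2, 5 at an adjusted p under 0.10, and 1 to 3 with 1 array left out. The causes of these changes were not tested, and each slide alone holds fewer arrays.

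The replicate numbers were not shown to pair the arrays, since the deviations of same-numbered arrays from their strain means correlated at -0.142, 0.51, -0.101 and 0.39. With the replicate block 1650 probes were called in place of 2129, and Pcna had an adjusted p of 0.0732. Signal over background limits Ccnb1, Cdk1 and Top2a, for which no probe could be tested.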
